A study of Mus musculus with 2 samples.

Results

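The primitive endoderm regulators are 8 genes, *Gata4*, *Gata6*, *Sox17*, *Sox7*, *Foxa2*, *Hnf4a*, *Pdgfra* and *Dab2*, that were followed in AIMP3-depleted mouse embryonic stem cells (mESCs). They are a list of names, found on the arrays through the accession of each probe, and the list was drawn up with earlier results of these data known. Of the 8 genes, 7 had a signal well above background and were tested among 24022 genes. All mESCs carried loxP-flanked *AIMP3* alleles and a tamoxifen-inducible Cre (AIMP3f/f;cre-ERT2). Deletion was induced with 2 µM tamoxifen over 4 days in medium with leukaemia inhibitory factor (LIF), and controls were given ethanol over the same time. The 2 AIMP3-depleted samples (replicates 1 and 2, Cy5) were each hybridized with a pool of control RNA (Cy3) to an Agilent mouse array.

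The pool is 1 control sample, so the tests leave out the spread between control cultures. No labels say that the AIMP3-depleted replicates were grown apart, so p-values cover only the spread between these samples, which may be technical. The dyes were not swapped, and controls carried the same alleles without the drug. A gene-specific dye difference, an effect of tamoxifen or of active Cre, and the loss of *AIMP3* therefore cannot be told apart. The mESC clones came from blastocysts of the mutant mice and were generally kept on feeder layers of mouse embryonic fibroblasts (MEFs), while for drug treatment the study's methods name medium conditioned by MEFs.

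Primitive endoderm is the epithelium that separates from the epiblast in the late blastocyst and gives rise to the parietal and visceral endoderm of the yolk sacs. FGF4 from epiblast cells favours this fate, GATA6 is the early transcription factor that drives it, and PDGFRA, SOX17, GATA4 and SOX7 follow in order. GATA4 or GATA6 forced into mESCs is enough to turn them into extraembryonic endoderm cells. FOXA2 and HNF4A act in the visceral endoderm, and DAB2 is an endocytic adaptor that helps to sort and polarize the endoderm cells.

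Since GATA factors are both members of this group and regulators of such genes, the upstream sequences of the members were read for the letters that GATA factors bind. RefSeq promoter windows on GRCm38.p6 were read for 4 of the 8 members, *Foxa2*, *Hnf4a*, *Pdgfra* and *Dab2*, in 8 windows. The search over members left out a chromosome that the share over all genes includes, so the 8 windows are not every window of the group. The first 240 bases of each window were searched on both strands for AGATAA or TGATAA. A match was found in 3 of the 8 windows, and in 16.2% of 32851 windows of the same length over all genes. The SOX letters ACAATG were in 0 of the 8 (10.4% of all windows), and the FOX letters TGTTTAC or TGTTTGC were in 0 of the 8 (7.06% of all windows). Every window of the 8 that holds a GATA match is shown, with the match in capitals, together with the single *Pdgfra* window, which holds none.
*Foxa2*, chr2:148045475-148045714, minus strand: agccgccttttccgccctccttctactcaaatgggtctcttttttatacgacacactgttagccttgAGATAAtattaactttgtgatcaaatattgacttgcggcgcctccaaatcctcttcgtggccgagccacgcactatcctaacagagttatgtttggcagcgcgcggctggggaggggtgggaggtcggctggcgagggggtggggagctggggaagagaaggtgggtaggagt
*Hnf4a*, chr2:163506607-163506846, plus strand: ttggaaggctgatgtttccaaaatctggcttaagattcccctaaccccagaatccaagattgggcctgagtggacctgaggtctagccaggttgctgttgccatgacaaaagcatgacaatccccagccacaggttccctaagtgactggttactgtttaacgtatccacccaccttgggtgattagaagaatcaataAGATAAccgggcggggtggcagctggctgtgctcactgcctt
*Dab2*, chr15:6299539-6299778, plus strand: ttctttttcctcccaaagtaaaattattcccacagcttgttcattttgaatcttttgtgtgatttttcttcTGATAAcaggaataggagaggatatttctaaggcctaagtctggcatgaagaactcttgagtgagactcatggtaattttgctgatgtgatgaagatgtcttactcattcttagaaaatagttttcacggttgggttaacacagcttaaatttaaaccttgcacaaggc
*Pdgfra*, chr5:75152001-75152240, plus strand: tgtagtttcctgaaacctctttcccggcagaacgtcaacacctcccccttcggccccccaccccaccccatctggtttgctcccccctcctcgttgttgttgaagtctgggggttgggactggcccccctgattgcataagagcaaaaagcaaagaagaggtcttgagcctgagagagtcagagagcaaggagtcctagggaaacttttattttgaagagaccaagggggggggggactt
A match of letters describes the window only, and the arrays measure no binding.

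The depleted gene was examined first. *Eef1e1*, which encodes AIMP3, had log2 ratios of AIMP3-depleted over control of -0.90 and -0.90 on the arrays of replicates 1 and 2 (SD 0.00665, n = 2; limma, Benjamini-Hochberg adjusted p = 4.8e-05). Each array held 62976 spots, spots were at a median of 2.68 to 3.31 times their background, and 0 spots were saturated. Of all genes tested, 1518 (6.32%) were over 1.5-fold with an unadjusted p under 0.05 and are called changed here. The study's results use the same cut-offs and do not say whether p was adjusted. Of the 1518 genes, 1328 rose and 190 fell, which is 5.53% and 0.791% of all genes tested. Counts in the lists below are to be read beside these shares. The median log2 ratio of all genes was 0.02, and the median SD between the arrays was 0.048.

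All 7 regulators that could be tested rose in AIMP3-depleted mESCs, against a background of 5.53% of all genes called raised. Their log2 ratios ran from 0.77 for *Gata4* to 1.44 for *Sox17*, with a median of 1.11 on each array. The largest adjusted p among the 7 was 0.000234 (limma). The signal of all 7 exceeded background in control and AIMP3-depleted channels alike, on each array, so that none passed the filter through the AIMP3-depleted channel alone. In bulk RNA, more cells that express a gene and more RNA per cell cannot be told apart. The probe signals were low, with mean log2 intensities between 8.26 and 9.39 where the median over all genes was 9.75, and at such signals the offset used in the background correction pulls ratios towards 0.

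**Figure D1:**
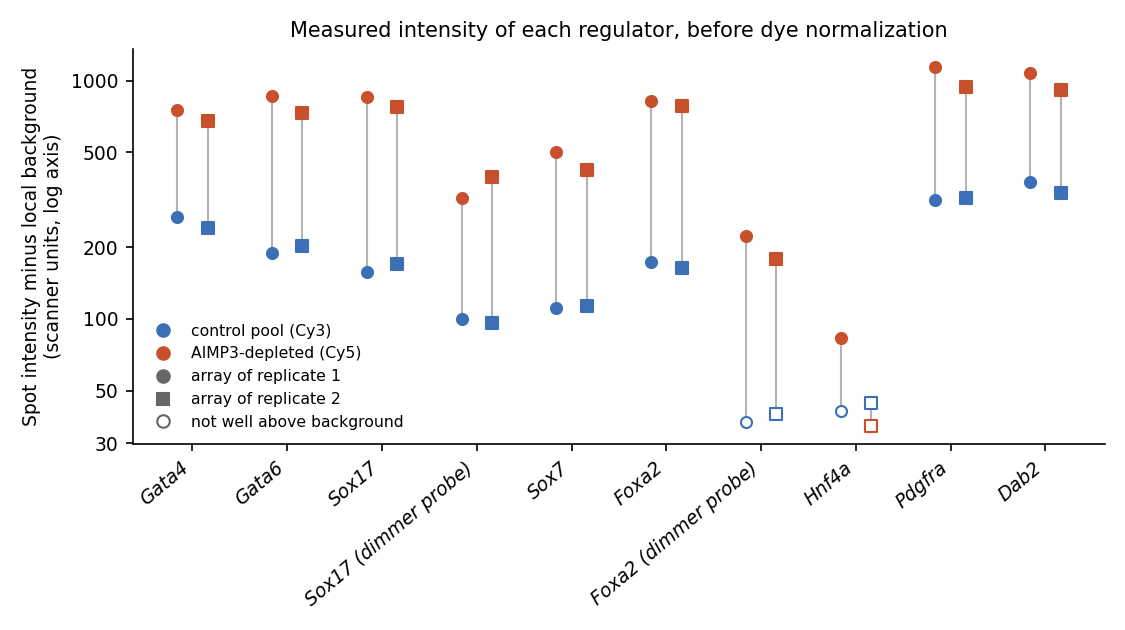
Spot intensity minus local background for each probe of the 8 regulators, on a log axis in scanner units, in the control pool (Cy3, blue) and AIMP3-depleted cells (Cy5, orange) on the arrays of replicate 1 (circles) and replicate 2 (squares). Every AIMP3-depleted point lies above the control point of the same array except that of *Hnf4a* on the array of replicate 2. Open symbols were not well above background, and intensities of different probes are not comparable.

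GATA4 and GATA6 are zinc-finger transcription factors of the endoderm. *Gata6* gave spot intensities of 232 and 246 in the control channel, over local backgrounds of 42 and 43, and of 920 and 789 in the AIMP3-depleted channel, over backgrounds of 56 and 56. Both AIMP3-depleted values lay above both control values, but these are intensities of different dyes before normalization. Net of background, the raw ratio of the dyes was 4.55 and 3.61. After dye normalization the log2 ratios were 1.23 and 1.18, a 2.30-fold rise (95% interval 2.14 to 2.48, adjusted p = 3.3e-05, limma).
*Gata4* gave 322 and 300 in the control channel, over backgrounds of 53 and 59, and 820 and 738 in the AIMP3-depleted channel, over backgrounds of 65 and 59. The raw ratio net of background was 2.81 and 2.82, and after normalization its log2 ratios were 0.65 and 0.89, a 1.70-fold rise (95% interval 1.53 to 1.90, adjusted p = 0.000234, limma). The arrays of *Gata4* differed by more than those of *Gata6* (SD 0.17 against 0.032, n = 2 each). The control level of *Gata4*, measured on each array from the same pool, differed by -0.16 on the log2 scale between the arrays (replicate 2 minus replicate 1) and the AIMP3-depleted level by 0.08.

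SOX17 and SOX7 are HMG-box transcription factors of the same SOX subgroup. *Sox17* gave 215 and 233 in the control channel and 920.5 and 840 in the AIMP3-depleted channel, over local backgrounds between 58 and 64.5 in both. Its log2 ratios of 1.42 and 1.45 made a 2.71-fold rise (95% interval 2.52 to 2.92, adjusted p = 3.3e-05, limma) and placed it at rank 33 from the top of the 24022 genes. The second, dimmer *Sox17* probe also rose, with log2 ratios of 0.71 and 1.18 (mean 0.95, SD 0.33, n = 2; adjusted p = 0.000808 over all probes, limma). The difference between its arrays was the widest of all tested probes of the members. The probes of *Sox17* thus had the same direction and unequal size.
*Sox7* gave 171 and 166 in the control channel and 563 and 490 in the AIMP3-depleted channel, over backgrounds between 53 and 68. Its log2 ratios of 1.11 and 1.11 were nearly equal (SD 0.0013), and the rise was 2.16-fold (95% interval 2.00 to 2.32, adjusted p = 3.4e-05, limma).

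FOXA2, a forkhead pioneer factor, and HNF4A, a nuclear receptor, belong to the endoderm after implantation and to the liver and gut later. *Foxa2* gave 214.5 and 205 in the control channel, over backgrounds of 41 and 42, and 875 and 836 in the AIMP3-depleted channel, over backgrounds of 54 and 54. The log2 ratios were 1.26 and 1.503, a 2.61-fold rise (95% interval 2.34 to 2.91, adjusted p = 4.6e-05, limma). The dimmer *Foxa2* probe was not well above background in the control channel of either array. Its ratio of 2.07-fold is therefore an estimate against a control value near background, and not a bound. This probe passed the filter through the AIMP3-depleted channel alone, and no support is taken from it.
*Hnf4a* was the regulator that was not tested. Its control channel, at 93 and 98.5 over backgrounds of 52 and 54, was not well above background on either array, and the AIMP3-depleted channel was so on the array of replicate 1 alone (142 over 59, against 97.5 over 62 for replicate 2). The log2 ratios were 0.23 and -0.15, on opposite sides of 0 (SD 0.27, n = 2). A change of *Hnf4a* was not detectable at this signal.

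PDGFRA, a receptor tyrosine kinase for PDGF ligands, is the usual surface marker of primitive endoderm and is also made by fibroblasts. Its probe was printed 10 times on each array. The means over these spots were 370 and 375 in the control channel and 1201 and 999 in the AIMP3-depleted channel. Before dye normalization, control spots ran from 290 to 472.5 over both arrays, and AIMP3-depleted spots from 780 to 1524. The log2 ratios of single spots ran from 0.81 to 1.12 on the array of replicate 1 (median 0.98, SD 0.094 over 10 spots) and from 0.81 to 1.07 on that of replicate 2 (median 0.96, SD 0.085). The spots are repeats of 1 hybridization and not replicates of the cells. Over the arrays the ratios were 0.99 and 0.95, a 1.96-fold rise (95% interval 1.82 to 2.11, adjusted p = 4.3e-05, limma).
*Dab2*, the endocytic adaptor, gave 440 and 400.5 in the control channel and 1143 and 981.5 in the AIMP3-depleted channel, over backgrounds between 61 and 67. Its log2 ratios were 0.69 and 0.86, a 1.71-fold rise (95% interval 1.56 to 1.88, adjusted p = 0.000132, limma). As for *Gata4*, the control pool itself read differently on the arrays, by -0.16 (replicate 2 minus replicate 1), and the AIMP3-depleted level by 0.0057.

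**Figure D2:**
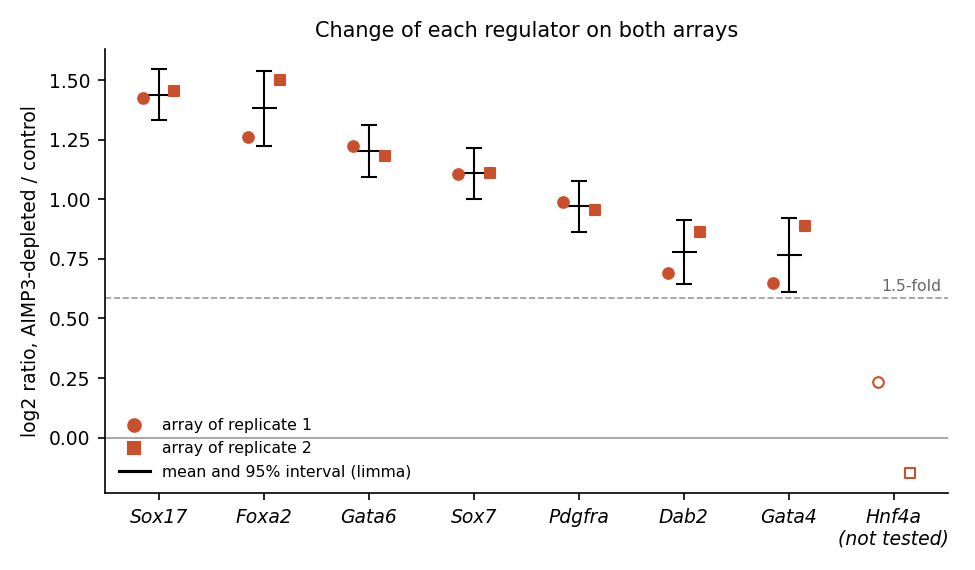
Log2 ratio of AIMP3-depleted over control for each regulator on the arrays of replicate 1 (circles) and replicate 2 (squares), with the mean and its 95% interval from limma (black). The 7 tested genes lie above the 1.5-fold line (dashed) on both arrays, from 0.77 to 1.44 on average, and the points of *Hnf4a*, which was not tested (open), lie on either side of 0.

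In order of their mean log2 ratios the regulators were *Sox17*, *Foxa2*, *Gata6*, *Sox7*, *Pdgfra*, *Dab2* and *Gata4*. This order depended on the processing: of 13 alternatives, *Foxa2* stood above *Sox17* in 5, *Gata4* above *Dab2* in 5, *Sox7* above *Gata6* in 2 and *Gata6* above *Sox17* in 1, the mean of all probes. For the brightest probes, the 95% intervals of every pair of neighbours in this order overlapped, whereas that of *Sox17* (1.33 to 1.55) lay wholly above those of *Gata6* (1.09 to 1.31), *Sox7* (1.00 to 1.21), *Pdgfra* (0.86 to 1.08), *Dab2* (0.64 to 0.91) and *Gata4* (0.61 to 0.92). The interval of the second *Sox17* probe (0.69 to 1.20) reached into all of these. Differences between genes were not tested. The lowest bound among the 7, 0.61 for *Gata4*, was close to the 1.5-fold threshold of 0.58. At 2-fold, 4 of the 7 remained above the threshold, and *Gata4*, *Pdgfra* and *Dab2* lay below it.

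The direction held under each processing tried, and the sizes did not. The mean log2 ratios of the authors' deposited table, which comes from the scanner software's own correction, were larger for each of the 7 genes, with a median of 1.41 in place of 1.11. Normexp without an offset, which was chosen after the data were seen, gave a median of 1.34. Averaging all probes lowered *Sox17* to 1.19 and *Foxa2* to 1.21. The methods' t-test, which takes the spread from the gene's own 2 ratios alone, left 4 of the 7 below 0.05. It gave a p of 0.0987 for *Gata4*, 0.0554 for *Foxa2* and 0.0695 for *Dab2*. After Benjamini-Hochberg adjustment this test called 0 of all genes, where it called 993 at an unadjusted p and limma called 1518.

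**Figure D3:**
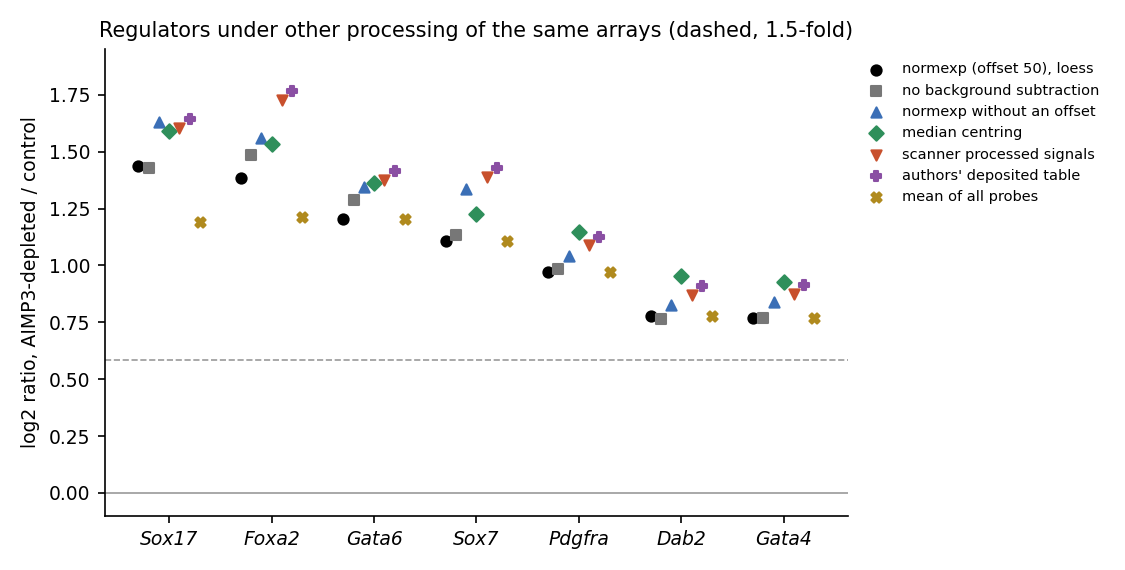
Mean log2 ratio of each tested regulator (horizontal axis) under 7 ways of processing the same 2 arrays, shown by symbol and colour, with the 1.5-fold line dashed. Every point lies above that line, and the values from the scanner's processed signals and the authors' table lie above those from normexp with an offset of 50 and loess.

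The nearest relatives and partners of the regulators moved less evenly. Of 14 such genes, 12 were measured, 4 rose, 0 fell and 8 were not called, with a median log2 ratio of 0.39 beside 0.02 over all genes. *Gata3* (0.85), a factor of the trophectoderm, *Gata2* (0.79), its blood and trophoblast relative, *Zfpm2* (0.70), a cofactor of GATA4, and *Pdgfrb* (0.62), the sister receptor of PDGFRA, rose. *Gata1*, the erythroid family member, was at -0.42 and was not called, but it fell with the scanner's processed signals (-0.72) and was called in 2 of 6 scalings, so that 1 gene of the list is lowered there. *Hnf4g* was not well above background. The second *Zfpm2* probe gave 0.37, under the threshold.

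Of the ligands that act on this lineage, *Pdgfa* and *Fgf4* were called in opposite directions, the fall of *Fgf4* in 5 of 6 scalings. Among 13 genes of PDGF and FGF signalling, all of them measured, *Pdgfa*, which encodes the ligand of PDGFRA, rose with log2 ratios of 0.78 and 0.78 (adjusted p = 6.5e-05, limma). *Fgf4*, the epiblast signal that favours primitive endoderm, fell by 0.87 on the log2 scale (SD 0.028, n = 2; adjusted p = 5.1e-05, limma). The other 11, among them the receptors and the feedback genes that report FGF signalling, were not called, and the median over the list was 0.11. With median centring in place of loess *Fgf4* stood at -0.47 and was not called, where the median of all genes moved to 0.18. *Pdgfb* (0.54) was called there (0.76), so that 2 genes of the list rose and 0 fell. The 1 raised gene of 13 is 7.69% of the list, near the 5.53% over all genes. The 1 lowered gene of 13 stands beside 0.791% lowered over all genes.

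Of 12 genes of the extraembryonic endoderm basement membrane, the matrix that these cells lay down, 8 rose and 0 fell, with a median of 0.69. By the brightest probe, the largest were *Sparc* (1.24), a matrix-binding glycoprotein, *Col4a1* (1.24) and *Col4a2* (1.05), the collagen IV chains, and *Lama1* (1.02), a laminin chain. The second *Sparc* probe gave 0.71, and the lowest of 3 *Nid1* probes gave 0.28. The count of 8 became 7 with the mean of all probes and 11 with median centring. *Nid2* was the lowest at -0.16, was not called, and was positive with median centring (0.11). Of 12 genes listed for parietal endoderm, 10 rose and 0 fell, with a median of 0.96. *Krt18* (1.78), *Krt8* (1.36) and *Krt19* (1.20), keratins of simple epithelia, and *Vim* (1.42), the filament protein of mesenchyme, led them. *Stra6* was the lowest at 0.50 and was not called, nor was *Plat* (0.57). They were called in 3 and 5 of 6 scalings, and all 12 rose with processed signals, median centring and the authors' table. Simple keratins also mark the trophectoderm, and vimentin and collagen IV are made by fibroblasts, so neither list belongs to endoderm alone.

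Visceral endoderm genes were mixed. Of 20, 15 were measured, 4 rose, 1 fell and 10 were not called, with a median of 0.23. The raised genes are 26.7% of those measured, beside 5.53% over all genes, where the lowered share was 0.791%. *Dkk1* (1.08), a WNT inhibitor, *Cubn* (1.00), an endocytic receptor, *Bmp2* (0.69) and *Apoe* (0.64) rose. *Rbp4*, which encodes the retinol carrier, fell by 0.68 on the log2 scale. The defining products of mature visceral endoderm *Afp*, *Ttr*, *Apoa1* and *Apoa4*, and the anterior marker *Cer1*, were not well above background. *Rbp4* was not called with median centring (-0.49), nor *Apoe* with processed signals (0.49), which was called in 4 of 6 scalings.
Definitive endoderm and mesendoderm arise later from the epiblast and use GATA, SOX17 and FOXA2 factors too. Of 12 of their genes, 10 were measured, 0 rose and 2 fell, with a median of -0.13. Over all genes 5.53% were called raised and 0.791% lowered, so 0 raised of 10 lies near the raised share. *Trh* fell by 0.70 (called in 5 of 6 scalings), and *Tdgf1*, a NODAL coreceptor of mESCs, fell by 0.59, a call that held in 3 of 6 scalings and was lost without replicate 2 (-0.55 on the other array). With median centring neither was called (-0.29 and -0.20), and the list had 1 raised gene, *Nodal* (0.78), and 0 lowered. *Mixl1* and *Mesp1* were not well above background.

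**Figure D4:**
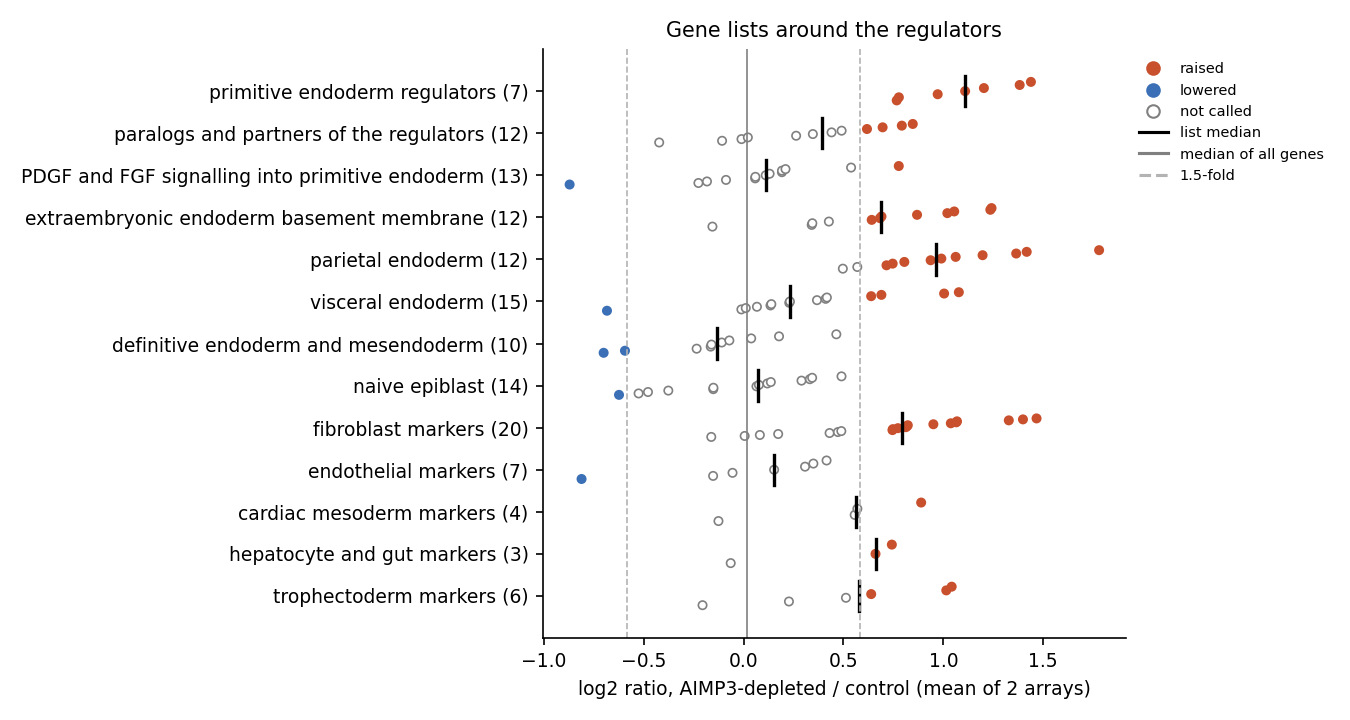
Mean log2 ratio over 2 arrays of the measured genes of each list (number measured in brackets), with raised (orange), lowered (blue) and not called (open) genes, the list median (black) and the median of all genes (grey line). The regulators, the parietal endoderm genes and the fibroblast markers have medians of 1.11, 0.96 and 0.79, and the definitive endoderm genes one of -0.13.

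Markers of naive epiblast, the state that mESCs represent, were all measured. Of the 14, 0 rose and 1 fell, with a median of 0.07. The 0 raised of 14 is near the 5.53% over all genes, where the lowered share was 0.791%. *Dppa3* fell by 0.62 on the log2 scale (adjusted p = 0.000139, limma). With median centring *Dppa3* stood at -0.41 and was not called, and the list had 1 raised gene, *Tbx3* (0.72), and 0 lowered. *Sox2* stood at -0.53, *Pou5f1* at -0.48 and *Nanog* at -0.38, with adjusted p of 0.000231, 0.00277 and 0.00131 (limma). None of these was called, since each mean fell short of 1.5-fold. *Pou5f1* differed between the arrays, at -0.64 and -0.32, and without replicate 2 it lay past 1.5-fold, which made the count 2. A second *Nanog* probe gave 0.06. The defining markers of the labelled cell type were thus all present.

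Markers of other cell types rose beside the regulators. Of 22 fibroblast markers, 20 were measured, 13 rose, 0 fell and 7 were not called, with a median of 0.79. The raised genes are 65% of those measured, beside 5.53% over all genes. *Tagln* (1.47) and *Acta2* (1.33), smooth muscle proteins of myofibroblasts, *S100a4* (1.40) and *Fbln2* (1.07) led, *Fbln1* was the lowest at -0.16 (0.06 with median centring), and *Lum* and *Fap* were not well above background. The summed level of the measured list was 61141 and 62027 in the control channel and 128289 and 138983 in the AIMP3-depleted channel. Such a sum is carried by its brightest probes and is not comparable between lists. Feeder layers were part of the usual culture, with MEF-conditioned medium named for drug treatment, and whether feeders were present in these samples is not given in the sources used here. *Pdgfra* and the basement membrane genes are also expressed by fibroblasts, and the part of such cells in the rise of the regulators was not tested.
Among trophectoderm markers 6 of 7 were measured, and *Plac1* (1.04), *Krt7* (1.01) and *Tead4* (0.64) rose, with a median of 0.58 and *Tfap2c* lowest at -0.21 (0.05 with median centring). *Elf5* was not well above background. Of 8 hepatocyte and gut markers 3 were measured, and the caudal factors *Cdx1* (0.74) and *Cdx2* (0.66) rose while *Vil1* stood at -0.06. The study itself uses *Cdx2* as a marker of trophectoderm. *Cdx2* was at 0.54 and 0.78 on the arrays, and the count was 1 without replicate 2 and 1 by the methods' t-test. *Alb*, *Serpina1a*, *Fabp1*, *Lgr5* and *Pdx1* were not well above background. Of 8 cardiac mesoderm markers 4 were measured, *Hand1* (0.89) rose and *Myh6* was lowest at -0.13 (0.08 with median centring), with a median of 0.56. The count of 1 depended on the processing: *Tnnt2* (0.56) was called in 5 of 6 scalings and *Nkx2-5* (0.57) in 4 of 6, so that 3 of the 4 rose with processed signals, median centring, the authors' table and normexp without an offset, and 3 lay past 1.5-fold without replicate 1. *Tbx5*, *Hand2*, *Isl1* and *Mef2c* were not well above background. Of 8 endothelial markers, 7 were measured, 0 rose, and *Cldn5* fell by 0.81 on the log2 scale, with a median of 0.15. The 0 raised of 7 is near the 5.53% over all genes, where the lowered share was 0.791%. The probes of *Kdr*, a VEGF receptor, disagreed, at -0.15 for the brightest, which was counted, and 1.06 for the other. *Sox17* and *Sox7* also act in endothelium, where *Emcn* was not well above background. The part of these cell types in the values of the regulators was not tested.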

How the data were processed

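Gene expression was measured on 2 two-colour Agilent arrays. The authors deposited the scanner output (per the file headers from Feature Extraction 11.5.1.1, while the methods name a different version) with spot and local background intensity, not normalized, and with processed signals and a log10 ratio made by the software. The authors also deposited a table of log2 ratios, which equals the scanner's log ratio plus 0.040 and 0.039 for 100% of 43720 and 43548 probes with 1 spot and a ratio other than 0 (tolerance 0.01). Its column medians are 0.09088 and 0.11121, positive values are higher in AIMP3-depleted cells, and 0 columns of per-sample values were left unused.

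Median spot signals were used, since the files hold no mean signal. Background was corrected by normexp (offset 50), each array was normalized by loess (span 0.3), and control spots and outlier flags (215 and 227 spots) were left out. A test was run on 33012 of 55681 probes, those whose signal was flagged well above background on each array in 1 channel or more, through the brightest probe of each gene. Genes were named through accessions in a RefSeq table of GRCm38.p6 (14972 of 24022 tested genes matched, and the others keep the file's name), and gene coordinates are left out, since probes were designed on a different assembly. Channel levels were taken after Aquantile scaling. The mean log2 ratio was tested against 0 with limma (1 residual and 5.29 prior degrees of freedom). Calls needed more than 1.5-fold and p below 0.05 without adjustment, and Benjamini-Hochberg values are over all tested genes.

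The members, the 12 other lists and the rule for naming genes (all members and *Eef1e1*, and from each list at most 4 called genes with the largest ratios and the lowest ratio) were chosen with earlier results of these data known. *Sox2*, *Pou5f1*, *Nanog*, *Nodal*, *Tbx3*, *Kdr*, *Tnnt2*, *Nkx2-5*, *Pdgfb*, *Plat* and genes not well above background were named outside the rule. The steps were tested on simulated data. Alternatives were other background corrections, normalizations, filters, probe rules, tests and thresholds, the authors' table and each replicate left out. Probe sequences were not used here, and 1 gene of the lists is not reported here. The number of arrays limits the precision. Software was limma 3.58.1 in R 4.3.3, with jsonlite 2.0.0 and data.table (version 1.17.8) to read files.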

Additional observations from a re-analysis of the deposited data

How the results depend on the processing

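The 7 tested regulators stayed positive under all 13 alternatives, and all 7 were called under each of them except the methods' t-test and the 2-fold threshold, which called 4 of 7 genes and 5 of 9 probes each. With the array of replicate 1 or 2 alone, which gives values and no test, 7 genes and 9 probes lay past 1.5-fold. Of the 9, the dimmer *Foxa2* probe, passed the filter through the AIMP3-depleted channel alone, and 8 were tested and called with signal required in both channels. Members' medians ran from 1.04, with no filter on dim probes and *Hnf4a* included, to 1.41. The 1518 changed genes became 2720 with processed signals, 2891 with median centring, 2747 in the authors' table, 2093 with normexp without an offset (chosen after seeing the data), 993 with the methods' t-test, 298 at 2-fold, and 1522 to 1651 with 1 array left out. Raised genes made up 87.5% of the changed genes, 97.8% with median centring, which moved the median of all genes to 0.18, 71.5% with processed signals and 77.5% in the authors' table. Of the genes of the other lists, 52 were called, 51 to 55 with 1 array left out, and 19 at 2-fold. The cause of these shifts was not tested. No paired analysis was possible because each array already sets 1 AIMP3-depleted replicate against 1 common control pool. Ratios of the members, which are dim, depend on the background correction.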
